A study of Rattus norvegicus with 12 samples.

Results

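The potassium channel genes on a rat expression array were followed in the tibia of young female rats given soy protein isolate (SPI), 17β-estradiol (E2) or both. A probe set, the group of short probes that reads 1 transcript, was taken as a member where the array's annotation gave it exactly 1 gene symbol and that symbol began with Kcn. By this rule 126 of 31042 probe sets were members, and they covered 75 of the 14217 genes that had a symbol of their own. Members were then sorted into 16 channel subfamilies by gene name.

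Female Sprague-Dawley rats were in 4 groups. The CAS group ate an AIN-93G type diet with casein as its protein, and the SPI group ate the same kind of diet with soy protein isolate in place of casein. The E2 group ate the casein diet and received E2 at 10 µg/kg/d, delivered by a minipump under the skin for 14 days, and the SPI+E2 group combined the SPI diet with that dose of E2. All rats were kept on their diets from postnatal day 21 and were killed on postnatal day 34. RNA came from tibia after the marrow had been aspirated, a mixed tissue that can hold bone cells, cartilage, vessels, nerve fibres and remaining blood cells, and each group was read on 3 arrays, each of a pool of 2 to 3 rats.

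The deposited values were log2 expression values in which each probe set had been centred on its own median over the 12 arrays. A value of 0 is therefore the middle array, and a value of 1 is a doubling against it on the log2 scale. Levels of different genes could not be compared, and whether a channel was detected at all could not be read from these values, nor could the presence of tissue markers. Over the 126 members the median SD within a group was 0.123, against 0.0995 over all probe sets, and the median standard error (SE) of a difference between group means was 0.092. A difference was called where limma's adjusted p, over all 31042 probe sets, was under 0.05. The largest rises and falls against CAS were named only where the arrays of the treated group did not overlap those of CAS. Lack of overlap with CAS is therefore no further support for them. The p-values rest on the spread between the 3 pools of a group, estimated over all 4 groups together and moderated by limma. The spread between single rats within a pool was not measured. The array of SPI pool 1 stood apart, with an SD over all probe sets of 0.211 against 0.128 to 0.164 on the other 11 arrays, and without it 33, 22 and 7 members were called against CAS with SPI, E2 and SPI+E2, where 34, 20 and 6 were called with it.

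Potassium channels let potassium leave or enter cells along its gradient and so set the resting voltage and end each action potential. Voltage-gated (Kv) channels are assembled from pore subunits of the Kv1 to Kv4, Kv7 and EAG families, with modifier pore subunits that are silent alone and auxiliary subunits (Kv beta, KChIP, KCNE) that change trafficking and gating. Inward rectifiers (Kir) and K2P channels, which carry leak current, hold the resting potential, and calcium-activated channels (BK, SK and IK) couple the voltage to calcium. In a long bone such channels are known from the axons that enter with the vessels, from muscle fibres, from red cells and their precursors, and from bone and cartilage cells themselves.

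Most of the potassium channel probe sets called with SPI alone or with E2 alone were higher than in CAS, and fewer passed the adjusted threshold when the treatments were combined. With SPI, 28 probe sets of 23 genes rose and 6 probe sets of 5 genes fell against CAS, that is 22.2% and 4.76% of the 126, while 8.25% of all probe sets were called higher and 9.07% lower. With E2, 18 probe sets of 16 genes rose and 2 fell, 14.3% and 1.59% of the members, against 4.99% and 4.36% of all probe sets. With SPI+E2, 5 probe sets rose and 1 fell, where 4.14% and 4.33% of all probe sets were called. In the order SPI, E2 and SPI+E2, the median log2 difference of the members was 0.11, 0.03 and 0.07, and over all probe sets it was 0.01, -0.01 and 0.02. Without CAS pool 1 the number called with SPI+E2 was 3. At an unadjusted p under 0.05 E2 and SPI+E2 gave like numbers of members, 27 higher and 4 lower against 26 and 4, or 24.6% and 23.8%, beside 20.3% and 23.5% of all probe sets. These 3 comparisons share the CAS arrays. By a 1.5-fold difference, the size the study used, here taken with no test, 14, 8 and 0 members passed, beside 2.43%, 1.64% and 0.474% of all probe sets. Across the 4 groups together limma's F test called 44 members in 38 genes, 34.9% of the members beside 25.2% of all probe sets. Neither it nor any comparison called 78 of the 126 members, a count that was not made over all probe sets.

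**Figure D1:**
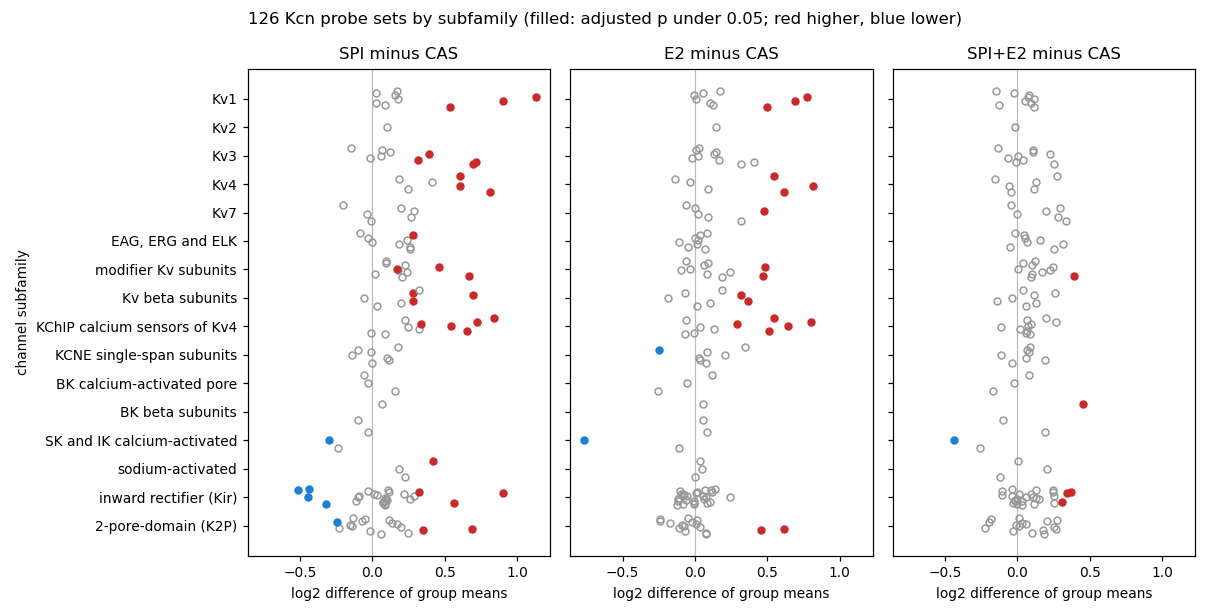
Log2 difference from CAS (horizontal axis) of each of the 126 Kcn probe sets, by channel subfamily (vertical axis), with SPI, E2 and SPI+E2; filled points had an adjusted p under 0.05, red for higher and blue for lower. With SPI 28 points are red and 6 blue, with E2 18 and 2, and with SPI+E2 5 and 1.

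Markers of other tissue components moved in the same arrays. Over all probe sets 8.25% were called higher and 9.07% lower with SPI. The shares were 4.99% and 4.36% with E2, and 4.14% and 4.33% with SPI+E2. Of 27 probe sets of 17 neuron marker genes, 19 rose in the SPI group, 18 under E2 and 12 under SPI+E2. The mean of these genes on the log2 scale was -0.41 to -0.38 on the CAS arrays, 0.39 to 0.40 on the SPI arrays, 0.14 to 0.17 on the E2 arrays and -0.20 to -0.14 on the SPI+E2 arrays. Sensory neuron markers (17 probe sets) rose in 14, 14 and 2, in the same order, and markers of Schwann cells and peripheral myelin (19 probe sets) rose in 13, 10 and 2, with 4 lower in SPI+E2. Of 23 probe sets of central glia markers, 10 rose with SPI and, with E2, 1 rose and 5 fell. Of 21 skeletal muscle probe sets 11 fell with SPI, 2 rose with E2, and 4 rose and 1 fell with SPI+E2. In erythroid markers 11, 12 and 12 of 17 probe sets fell with SPI, E2 and SPI+E2. Cartilage markers fell in 15, 8 and 11 of 16 probe sets, whereas of 11 osteoblast probe sets 2, 0 and 1 fell and none rose by limma. Smooth muscle and pericyte markers (14 probe sets) gave 3 rises and 4 falls with SPI, 3 and 1 with E2 and 5 and 1 with SPI+E2. Endothelial markers (12 probe sets) gave 2 falls, 1 fall and 1 rise in that order, and macrophage markers (8 probe sets) 1 fall with SPI and 1 rise with SPI+E2. In bulk tissue, fewer cells of a type and less RNA per cell cannot be told apart. The part of these lists in the results below was not tested.

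**Figure D2:**
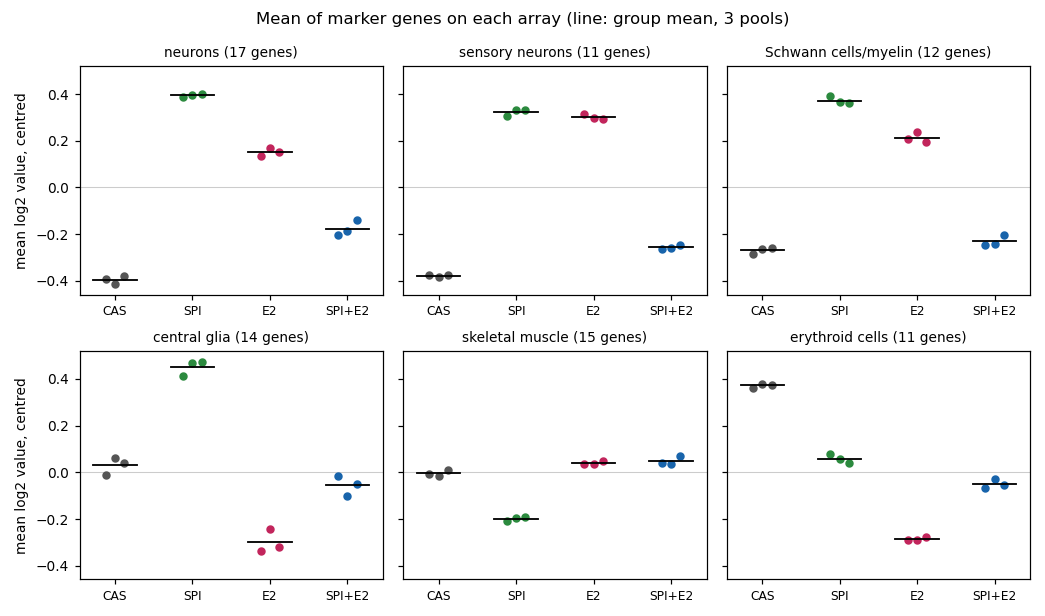
Mean centred log2 value (vertical axis) of marker genes of 6 cell types on each of the 12 arrays, by group (horizontal axis); points are arrays and lines are group means. The neuron list lies between 0.39 and 0.40 with SPI and between -0.41 and -0.38 in CAS, and the erythroid list is highest in CAS.

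Among the Kv1 (shaker-related) channels, Kcna2 and Kcna1 gave the largest rises of all members with SPI. Kcna1 and Kcna2 encode delayed rectifiers that lie beside the nodes of myelinated axons. The Kcna2 probe set 1379092_at read -0.36, -0.47 and -0.41 on the 3 CAS arrays, 0.77, 0.71 and 0.69 on SPI, 0.37, 0.28 and 0.44 on E2 and -0.35, -0.39 and -0.28 on SPI+E2. Both single treatments lay above CAS without overlap, SPI above E2, and the SPI+E2 arrays lay within or just above the CAS range. Its difference from CAS was 1.13 ± 0.057 with SPI (2.19-fold, adjusted p = 2.38e-07), 0.78 ± 0.057 with E2 (1.71-fold, adjusted p = 4.83e-06), and in SPI+E2 it was 0.07 ± 0.057, not called (adjusted p = 0.474).

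Kcna1 read -0.37, -0.41 and -0.28 in CAS, 0.39, 0.65 and 0.62 in SPI, 0.41, 0.25 and 0.36 in E2 and -0.36, -0.25 and -0.30 in SPI+E2. Every SPI and every E2 array was above every CAS array, as the naming rule required, and the SPI+E2 arrays lay within or just above the CAS range. It rose by 0.90 ± 0.074 with SPI (adjusted p = 8.39e-06) and by 0.69 ± 0.074 with E2 (adjusted p = 8.41e-05). Kcna4, a channel of the rapidly inactivating A-type, read -0.30, -0.15 and -0.25 in CAS, 0.06, 0.47 and 0.37 in SPI, 0.08, 0.43 and 0.30 in E2 and -0.17, -0.06 and -0.12 in SPI+E2. It rose by 0.53 with SPI and 0.50 with E2, and in both groups 1 of the 3 arrays was much closer to CAS than the other 2. The other 6 Kv1 probe sets, of Kcna2, Kcna3, Kcna5 and Kcna6, were called in none of the 3 comparisons by limma. Their differences with SPI ran from 0.02 for Kcna5 to 0.17 for the second Kcna2 probe set.

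The beta subunits Kcnab1 and Kcnab2 bind the inner face of Kv1 channels. The Kcnab2 probe set 1390674_at read -0.20, -0.17 and -0.26 in CAS, 0.46, 0.54 and 0.45 in SPI, 0.09, 0.13 and 0.11 in E2 and -0.11, -0.09 and -0.09 in SPI+E2. The SPI arrays stood well above the E2 arrays, and the groups did not overlap. It rose by 0.69 ± 0.046 with SPI (adjusted p = 1.55e-06) and 0.32 ± 0.046 with E2 (adjusted p = 0.000776). Of the other 3 Kcnab2 probe sets, 1391203_at rose by 0.28 with SPI and 1397663_at and 1387689_at were not called, at 0.32 and -0.06. A Kcnab1 probe set rose by 0.28 with SPI and 0.37 with E2, and the other was not called, at 0.20 and 0.10.

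**Figure D3:**
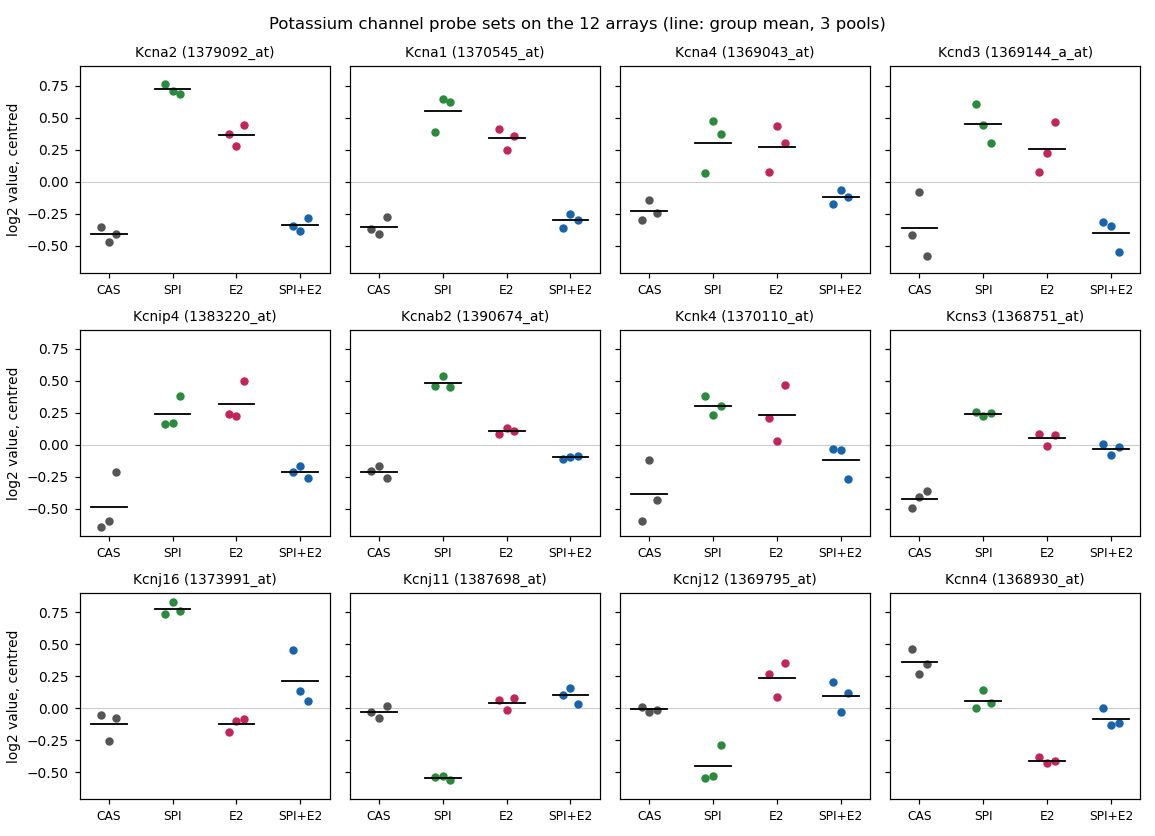
Centred log2 value (vertical axis) of 12 potassium channel probe sets on each array, by group (horizontal axis); points are arrays and lines are group means. Kcna2 and Kcna1 are high with SPI and with E2 and near CAS with SPI+E2, Kcnj16 is high with SPI, Kcnj11 and Kcnj12 are low with SPI, and Kcnn4 is low in all 3 treated groups.

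Promoter sequences of Kcna2, Kcna4 and Kcnd3, which were all called higher with SPI and with E2, are shown beside that of Kcnj16, which was called higher with SPI and not with E2. Each runs 5′ to 3′ from 250 bases before to 50 bases after an annotated start (RefSeq, GRCr8). Capitals mark the GC box GGGCGG on either strand, which reads CCGCCC when it lies on the other strand. The Kcnj16 window lies inside that gene's span, chr10:96489329-96520745, so its start is not the first base of the gene.
Kcna2, chr2:197393280-197393579 on the + strand: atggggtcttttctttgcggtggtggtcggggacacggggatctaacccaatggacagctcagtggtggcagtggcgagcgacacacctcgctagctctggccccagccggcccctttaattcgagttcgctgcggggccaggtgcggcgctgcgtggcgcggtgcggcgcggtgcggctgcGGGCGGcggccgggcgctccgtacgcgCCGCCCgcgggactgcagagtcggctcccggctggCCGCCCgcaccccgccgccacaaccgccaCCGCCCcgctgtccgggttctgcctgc
Kcna4, chr3:114215086-114215385 on the + strand: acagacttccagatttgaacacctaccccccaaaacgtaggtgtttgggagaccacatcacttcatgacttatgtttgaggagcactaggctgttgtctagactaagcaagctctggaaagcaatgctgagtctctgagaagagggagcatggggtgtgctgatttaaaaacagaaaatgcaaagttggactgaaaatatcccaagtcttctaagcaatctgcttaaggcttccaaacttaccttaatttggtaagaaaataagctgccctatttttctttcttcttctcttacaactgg
Kcnd3, chr2:195626066-195626365 on the + strand: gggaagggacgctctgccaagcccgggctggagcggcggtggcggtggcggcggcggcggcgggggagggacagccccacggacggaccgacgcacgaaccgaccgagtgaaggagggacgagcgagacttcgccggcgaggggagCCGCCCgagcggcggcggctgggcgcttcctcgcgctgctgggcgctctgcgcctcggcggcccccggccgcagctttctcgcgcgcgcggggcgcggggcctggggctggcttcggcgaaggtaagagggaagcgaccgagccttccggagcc
Kcnj16, chr10:96517074-96517373 on the + strand: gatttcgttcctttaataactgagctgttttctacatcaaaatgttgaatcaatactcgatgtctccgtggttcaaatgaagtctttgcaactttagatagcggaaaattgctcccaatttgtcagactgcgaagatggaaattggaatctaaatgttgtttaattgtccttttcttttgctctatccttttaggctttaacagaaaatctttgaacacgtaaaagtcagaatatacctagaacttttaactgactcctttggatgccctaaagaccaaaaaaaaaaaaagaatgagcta

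The Kcna2 window was 73.3% G and C, with 40 CpG dinucleotides and 4 GC boxes, and the Kcnd3 window 77.7%, with 48 CpGs and 1 GC box. The Kcna4 window was 41.7% G and C with 1 CpG, and that of Kcnj16 34% with 6 CpGs, and neither held a GC box. Kcna2 and Kcna4, called in the same directions, thus had promoters of different base composition. Of the 75 genes 52 matched a promoter in the table, and 30 of them (57.7%) held a GC box, beside 34.9% of all 27457 promoters of that length. Their median G and C content was 62%, beside 52.3% for all promoters. The TATA box TATAAA was found in 3.85% of them and 14.3% of all, the GATA motif AGATAA in 13.5% and 11.3%, the E-box CAGCTG in 23.1% and 15.1%, and the single arm of the estrogen response element, AGGTCA, in 7.69% and 15.7%, counting both strands. The full estrogen response element GGTCANNNTGACC was in 0 of the 52 and 0.0255% of all, the CRE TGACGTCA in 0 and 1.91%, and the RE1 motif of the repressor REST in 0 and 0.0546%. A missing match says only that these letters were not in the window.

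Among Kv4 (shal-related) channels and their calcium sensors, 8 of 16 probe sets rose with SPI and 8 with E2. Over all probe sets 8.25% were called higher with SPI and 4.99% with E2. Kv4 pores carry A-type current and take up KChIP calcium sensors and the membrane proteins DPP6 and DPP10. Of 6 Kv4 probe sets 3 rose with SPI and 3 with E2, and of 10 KChIP probe sets 5 rose with each; none fell, and none of the 16 was called with SPI+E2 by limma. At an unadjusted p under 0.05 the corresponding number for SPI+E2 was 3 of 16, beside 23.5% of all probe sets.

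Of 3 Kcnd3 probe sets a pair rose, and the other was not called, at 0.25 with SPI and 0.09 with E2. The probe set 1369144_a_at read -0.42, -0.08 and -0.58 in CAS, 0.61, 0.44 and 0.31 in SPI, 0.08, 0.22 and 0.47 in E2 and -0.32, -0.35 and -0.55 in SPI+E2. The probe set 1378111_at read -0.25, -0.19 and -0.21 in CAS, 0.09, 0.35 and 0.72 in SPI, 0.65, 0.68 and 0.47 in E2 and -0.24, -0.49 and -0.09 in SPI+E2. In both, every SPI and E2 array was above every CAS array, and at the second the 3 SPI arrays spread widely. The differences were 0.81 ± 0.13 and 0.60 ± 0.14 with SPI and 0.62 ± 0.13 and 0.82 ± 0.14 with E2. The E2 call of the first was lost without CAS pool 3 or E2 pool 3, at 0.50 and 0.51 (adjusted p = 0.0547 and 0.0555). Kcnd1 rose by 0.60 with SPI and 0.54 with E2, while the 2 probe sets of Kcnd2 were not called against CAS, at 0.41 and 0.18 with SPI.

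Among the KChIPs, the Kcnip1 probe set 1394097_at read -0.42, -0.29 and -0.35 in CAS, 0.57, 0.38 and 0.51 in SPI, 0.09, 0.33 and 0.16 in E2 and -0.09, -0.26 and -0.12 in SPI+E2. All treated arrays lay above the CAS arrays, and the SPI+E2 difference was the one not called. Its rise was 0.84 ± 0.076 with SPI (adjusted p = 1.76e-05) and 0.55 ± 0.076 with E2 (adjusted p = 0.000582), where the mean over the gene's 3 probe sets gave 0.19 and was not called (adjusted p = 0.057). Kcnip4 rose at both of its probe sets, by 0.72 and 0.66 with SPI and 0.80 and 0.51 with E2. The second of these, 1370595_a_at, had a CAS array at -0.03, and its call with E2 was lost in 9 of 20 other settings (adjusted p from 0.000125 to 0.156). Kcnip2 rose by 0.54 and 0.64 at 1 of 3 probe sets, and Kcnip3 by 0.34 and 0.29 at 1 of 2.

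Kv3 (shaw-related) channels, which repolarize fast-firing neurons, were called with SPI (4 of 9 probe sets, all higher) and not with E2. Over all probe sets 8.25% were called higher with SPI. Kcnc1 read -0.21, -0.37 and -0.30 in CAS, 0.20, 0.62 and 0.38 in SPI, 0.11, 0.05 and -0.10 in E2 and 0.01, -0.13 and -0.01 in SPI+E2. It rose by 0.70 ± 0.096 with SPI (adjusted p = 0.000449), and with E2 the difference of 0.32 ± 0.096 missed the threshold (adjusted p = 0.0668). All E2 arrays of Kcnc1 lay above CAS and below SPI, and the difference of SPI from E2, 0.38 ± 0.096, was called (adjusted p = 0.0191). Kcnc2 rose with SPI at 3 of 6 probe sets, by 0.72, 0.39 and 0.32. The largest of these read 0.18, 0.48 and 0.93 on the SPI arrays, a wide spread. No Kv3 probe set was called with E2 by limma, where 3 of 9 had an unadjusted p under 0.05, beside 20.3% of all probe sets.

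In the remaining Kv pore families few members were called against CAS. Kcnq5, a subunit of the M-current that damps repeated firing, rose by 0.48 ± 0.094 with E2 at the probe set 1379510_at (adjusted p = 0.00629), and its SPI difference was 0.29 (adjusted p = 0.0544). The SPI arrays of Kcnq5 read -0.20, 0.09 and 0.23, so that 1 array lay next to the CAS range. Without that array, SPI pool 1, the difference was 0.41 and called (adjusted p = 0.00322). Over all other settings it ran from 0.02 to 0.41, at adjusted p up to 0.889. The gene's 3 probe sets ran from -0.20 to 0.29 with SPI, with 0 called, and from -0.06 to 0.48 with E2, with 1 called. Of 8 EAG, ERG and ELK probe sets Kcnh5 alone was called against CAS, with SPI, at 0.28. Its arrays read 0.26, 0.22 and 0.20 against -0.04, 0.01 and -0.14 in CAS. At an unadjusted p under 0.05, 4 of these 8 were higher with SPI (50%), beside 30.4% of all probe sets. Of 6 Kv7 (M-current) probe sets, 2 were higher and 1 lower at that level with SPI (50%), beside 30.4% of all. With SPI+E2 3 were higher (50%), beside 23.5% of all. Kcnh2 was higher in SPI than in E2 by 0.30 ± 0.088 (adjusted p = 0.0356). The only Kv2 probe set, of Kcnb2, was not called (0.10 with SPI and 0.14 with E2).

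Modifier subunits form no channel alone and change the currents of Kv2 partners. Kcns3 was called higher in all 3 treated groups. It read -0.49, -0.41 and -0.36 in CAS, 0.26, 0.23 and 0.25 in SPI, 0.09, -0.01 and 0.07 in E2 and 0.01, -0.08 and -0.02 in SPI+E2. Every treated array was above every CAS array, and the order was SPI, then E2, then SPI+E2. The differences were 0.66 ± 0.051, 0.47 ± 0.051 and 0.39 ± 0.051 (adjusted p = 5.05e-06, 9.13e-05 and 0.00084). SPI exceeded E2 by 0.19 ± 0.051 (adjusted p = 0.0242), whereas the difference of SPI+E2 from E2, -0.08 ± 0.051, did not pass (adjusted p = 0.346). Kcnv1 rose by 0.46 with SPI and 0.49 with E2, and Kcng3 by 0.17 with SPI.

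K2P channels carry the leak current of resting cells. Kcnk4, a channel that opens when the membrane is stretched, read -0.59, -0.12 and -0.43 in CAS, 0.38, 0.24 and 0.30 in SPI, 0.21, 0.03 and 0.47 in E2 and -0.03, -0.04 and -0.27 in SPI+E2. The CAS arrays spread widely, and the rises were 0.69 ± 0.13 and 0.62 ± 0.13. That all SPI and E2 arrays lay above CAS was required by the naming rule. Kcnk1 rose by 0.35 ± 0.069 with SPI and 0.45 ± 0.069 with E2. Kcnk6 fell by 0.24 with SPI on the log2 scale (SE 0.061, adjusted p = 0.0174), and this call was lost in 4 of 20 other settings, at adjusted p up to 0.0794. A second Kcnk6 probe set gave -0.14 and was not called (adjusted p = 0.508). The other 13 of the 16 K2P probe sets were not called with SPI, so that 18.8% were called, beside 17.3% of all probe sets. None of the 16 was called with SPI+E2 by limma, where 5 (31.2%) had an unadjusted p under 0.05, beside 23.5% of all probe sets.

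Inward rectifiers were called in both directions with SPI and were not called with E2. Of 26 Kir probe sets 3 rose (11.5%) and 4 fell (15.4%) with SPI, beside 8.25% and 9.07% of all probe sets. With SPI+E2 3 rose (11.5%), beside 4.14% of all. With E2 0 were called by limma, where 2 (7.69%) had an unadjusted p under 0.05, beside 20.3% of all probe sets. Kcnj16, which forms heteromeric channels with the product of Kcnj10 in kidney and glia, read -0.06, -0.25 and -0.07 in CAS, 0.73, 0.83 and 0.76 in SPI, -0.18, -0.10 and -0.09 in E2 and 0.45, 0.13 and 0.06 in SPI+E2. The SPI arrays stood apart from all others, the E2 arrays lay within the CAS range, and the SPI+E2 arrays lay above CAS with 1 array well above the other 2. The rise was 0.90 ± 0.093 with SPI (1.87-fold, adjusted p = 4.79e-05), the E2 difference was 0.01 ± 0.093, and SPI exceeded E2 by 0.90 ± 0.093 (adjusted p = 7.8e-05). With SPI+E2 the rise was 0.34 ± 0.093 (adjusted p = 0.0426), and this call was lost in 13 of 20 other settings, at adjusted p up to 0.138. Kcnj10 itself was not called (-0.03 with SPI), and a second Kcnj16 probe set gave 0.29 with SPI (adjusted p = 0.183). On the same arrays central glia markers had a mean of 0.41 to 0.47 with SPI, -0.01 to 0.06 in CAS and -0.34 to -0.24 with E2, and the part of that list in the Kcnj16 result was not tested.

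The Kir members that fell with SPI were Kcnj11, at 2 of 3 probe sets, Kcnj12 and Kcnj8. Kcnj11 encodes the pore of ATP-sensitive potassium channels in skeletal muscle and endocrine cells, and Kcnj12 an inward rectifier of skeletal and heart muscle. Kcnj11 at 1387698_at read -0.03, -0.07 and 0.02 in CAS, -0.54, -0.53 and -0.56 in SPI, 0.07, -0.02 and 0.08 in E2 and 0.10, 0.16 and 0.04 in SPI+E2. Only the SPI arrays of this probe set departed from the rest, by a fall of 0.51 against CAS (1.43-fold lower, SE 0.051, adjusted p = 3.33e-05) and with SPI against E2 also called (-0.58 ± 0.051, adjusted p = 2.63e-05). A second Kcnj11 probe set, 1391007_s_at, whose suffix marks probes shared by several transcripts, fell by 0.44, and the third gave -0.10 (adjusted p = 0.591). Kcnj12 read 0.01, -0.03 and -0.01 in CAS, -0.54, -0.53 and -0.29 in SPI, 0.27, 0.08 and 0.35 in E2 and 0.21, -0.03 and 0.12 in SPI+E2, and fell by 0.44 with SPI (adjusted p = 0.00471). Kcnj8, the pore of the vascular ATP-sensitive channel, fell by 0.32 (adjusted p = 0.0232), a call lost in 5 of 20 other settings at adjusted p up to 0.084. The skeletal muscle list had a mean of -0.21 to -0.19 on the SPI arrays, -0.01 to 0.01 in CAS and 0.03 to 0.05 with E2, and its part in these falls was not tested.

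Other Kir members rose. Kcnj15 rose by 0.32 ± 0.077 with SPI and 0.37 ± 0.077 with SPI+E2, while E2 gave 0.01 ± 0.077, all at 1 of 2 probe sets, the other being called with none, and its SPI+E2 call was lost in 4 of 20 other settings (adjusted p up to 0.135). Kcnj6, a channel opened by G proteins, rose by 0.56 ± 0.099 with SPI at 1 of 4 probe sets, and Kcnj13 by 0.31 ± 0.079 with SPI+E2, lost in 6 of 20 other settings (adjusted p up to 0.102).

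Kcnn4, the intermediate-conductance calcium-activated channel through which red cells lose potassium, fell in all 3 treated groups. It read 0.46, 0.27 and 0.34 in CAS, 0.00, 0.14 and 0.04 in SPI, -0.39, -0.43 and -0.41 in E2 and 0.00, -0.13 and -0.12 in SPI+E2. All CAS arrays were the highest and all E2 arrays the lowest, with no overlap between E2 and the other groups. The fall was 0.30 with SPI (adjusted p = 0.00641), 0.77 with E2 (1.7-fold lower, adjusted p = 1e-05) and 0.44 in the combined group (adjusted p = 0.00135), each with SE 0.062. Erythroid markers had a mean of 0.36 to 0.38 in CAS, 0.04 to 0.08 with SPI, -0.29 to -0.27 with E2 and -0.07 to -0.03 with SPI+E2, and their part in this fall was not tested. The 2 small-conductance members, Kcnn1 and Kcnn3, were not called.

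The BK channel pore Kcnma1 was not called against CAS at any of its 3 probe sets, whereas its accessory subunit Kcnmb4 rose with the combination. Kcnmb4 read 0.00, 0.00 and -0.07 in CAS, 0.21, -0.04 and -0.05 in SPI, 0.17, -0.01 and -0.06 in E2 and 0.46, 0.36 and 0.46 in SPI+E2. The 3 SPI+E2 arrays were above all 9 others. The rise was 0.45 ± 0.078 against CAS (adjusted p = 0.0044), 0.39 ± 0.078 against SPI (adjusted p = 0.00709) and 0.39 ± 0.078 against E2 (adjusted p = 0.0078), and the single treatments gave 0.06 and 0.06. The sodium-activated channel Kcnt1 rose by 0.42 ± 0.11 with SPI at 1 of 3 probe sets, with SPI arrays at 0.64, 0.39 and 0.11, and this call was lost in 5 of 20 other settings (adjusted p up to 0.0752). Among 7 probe sets of the single-span KCNE subunits, 1 of Kcne2 fell by 0.25 with E2, a call lost in 6 of 20 other settings (adjusted p up to 0.599, for the mean over the gene's probe sets).

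SPI and E2, the question of the study, were then set against each other. Between the SPI and E2 groups 18 member probe sets of 17 genes were higher and 7 of 6 genes lower with SPI, beside 7.98% and 8.75% of all probe sets. The number called, 25, was 15 without E2 pool 1 or without E2 pool 3, and 11 where the 2 groups were fitted alone. The largest differences were those of Kcnj16 (0.90 ± 0.093), Kcnj12 (-0.69 ± 0.088), Kcnj11 (-0.58 ± 0.051 and -0.58 ± 0.056), Kcnj6 (0.48 ± 0.099) and Kcnn4 (0.47 ± 0.062). Kir channels and Kcnn4 thus gave the 6 largest differences. That of Kcnj6 was 0.13 and not called for the mean over the gene's probe sets (adjusted p = 0.0967). Among Kv members SPI exceeded E2 in Kcna2 by 0.36 ± 0.057 (adjusted p = 0.00131), whereas for Kcna1 the difference of 0.21 ± 0.074 was not called (adjusted p = 0.0737) and for Kcnd3 the differences were 0.20 ± 0.13 and -0.21 ± 0.14, neither called.

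In 28 of the 126 potassium channel probe sets the response to E2 differed with the diet. Kcna2 rose by 0.78 with E2 on the casein diet, and on the SPI diet the same dose gave a difference of -1.06 ± 0.057 (adjusted p = 4.53e-07). The interaction, the E2 effect on the SPI diet minus that on casein, was called below 0 in 24 member probe sets of 21 genes and above 0 in 4, beside 5.75% and 4.17% of all probe sets. Its median over the members was -0.06, and over all probe sets it was 0.04. It was -1.84 ± 0.080 for Kcna2 (adjusted p = 6.16e-08), -1.55 ± 0.10 for Kcna1 (adjusted p = 1.55e-06), -1.48 ± 0.20 and -1.47 ± 0.19 for Kcnd3, and -1.19 ± 0.11 for Kcnip1. Over other settings, among them the mean per gene, it ran from -1.88 to -0.95 for Kcna2 and from -1.24 to -0.50 for Kcnip1. On the SPI diet, adding E2 lowered 22 member probe sets and raised 7, beside 5.83% and 5.56% of all. Among those raised were Kcnj11 (0.64 ± 0.051 and 0.40 ± 0.056), Kcnj12 (0.55 ± 0.088) and Kcnmb4, and among those lowered Kcnj16 (-0.56 ± 0.093). Against E2 alone, SPI+E2 was lower in 12 member probe sets and higher in 8, beside 5.53% and 4.92% of all, and without SPI+E2 pool 2 the 20 called were 13. The neuron list, for comparison, had a called interaction below 0 in 19 of 27 probe sets and the sensory neuron list in 14 of 17, and their part in these values was not tested.

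**Figure D4:**
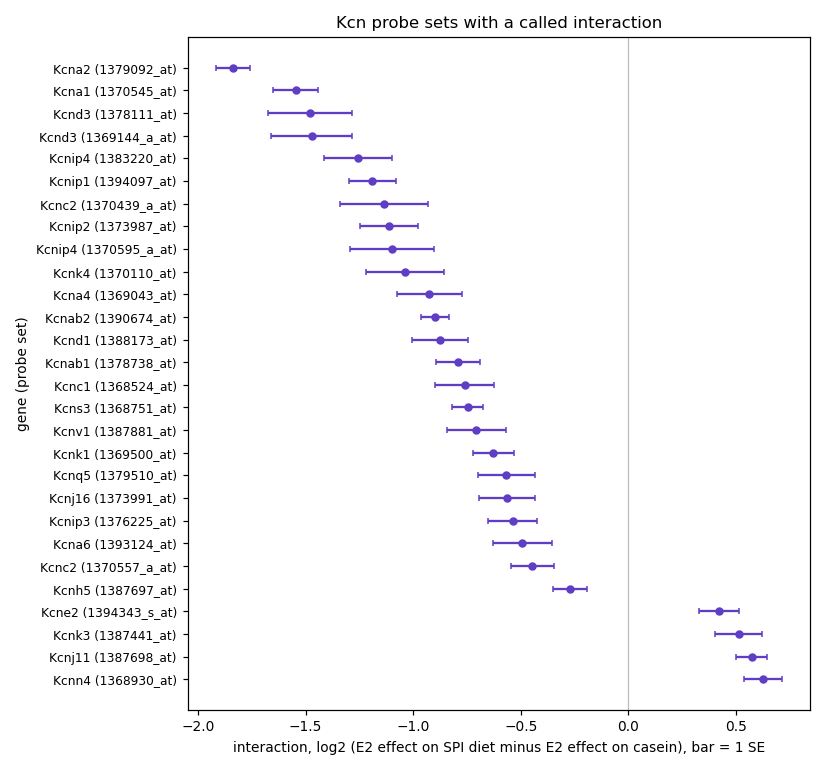
Interaction of SPI and E2 on the log2 scale (horizontal axis, the E2 effect on the SPI diet minus that on casein, with bars of 1 SE) for the 28 Kcn probe sets in which it was called (vertical axis). The 24 values below 0 run down to -1.84 for Kcna2, and the 4 above 0 are Kcne2, Kcnk3, Kcnj11 and Kcnn4.

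Probe sets of 1 gene often differed. Of the 75 genes 31 had more than 1 probe set, 82 in all. With SPI, 14 of the 31 had some but not all probe sets called, and 1, Kcnip4, had all called. The figures with E2 were 9 and 1, and with SPI+E2 2 and 0. No such count was made for other genes of the array, so whether these figures are particular to potassium channels cannot be read. Kcnc2 had 6 probe sets, whose SPI differences ran from -0.01 to 0.72. For Kcnip1 they were -0.01, 0.25 and 0.84. Probe sets of a gene read different stretches or splice forms of its transcript, and the files do not say which. With the mean of the probe sets of each gene in place of single probe sets, 29, 17 and 7 genes were called against CAS in the SPI, E2 and SPI+E2 groups.

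**Figure D5:**
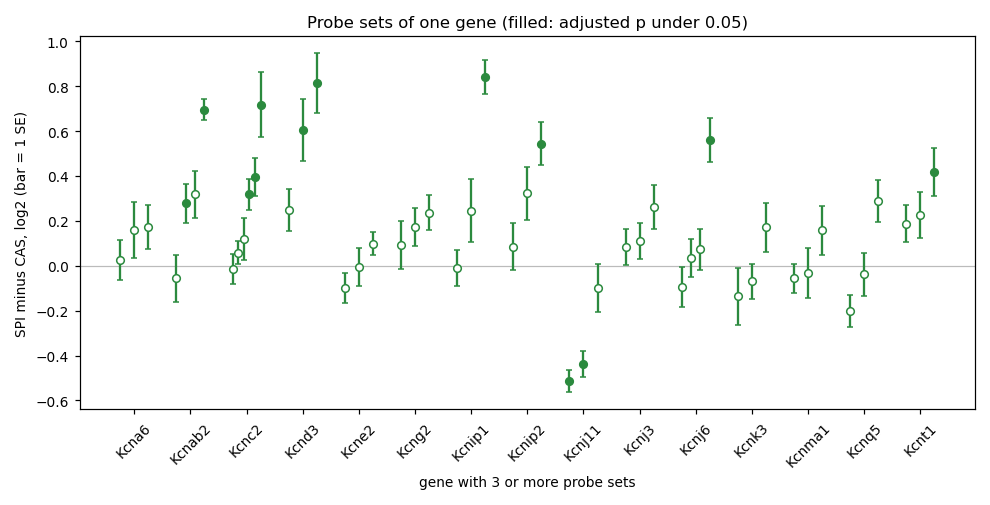
SPI minus CAS on the log2 scale (vertical axis, bars of 1 SE) for each probe set of the 15 genes with 3 or more probe sets (horizontal axis); filled points had an adjusted p under 0.05. Kcnip1, Kcnj6 and Kcnd3 each hold called and uncalled probe sets, and Kcnj11 has 2 that fell and 1 that was not called.

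Some members lie next to each other in the genome. In the RefSeq gene table Kcna2 adjoins Kcna3, Kcna1 lies between Kcna5 and Kcna6, Kcnj16 adjoins Kcnj2 and Kcnip1 adjoins Kcnmb1, with no protein-coding gene between. With SPI the neighbours Kcna3, Kcna5 and Kcnj2 gave 0.09, 0.02 and 0.09, the Kcna6 probe sets 0.16, 0.02 and 0.17, and Kcnmb1 -0.10, and none was called. Kcnj6 and Kcnj15, also adjacent, were both called higher with SPI, and Kcnj8 and the adjacent Abcc9, which encodes the sulphonylurea receptor that joins its channels, were both called lower.

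Genes that work with potassium channels were counted by list. Beside these counts stand the shares of all probe sets called, 8.25% higher and 9.07% lower with SPI. They were 4.99% and 4.36% with E2, and 4.14% and 4.33% with SPI+E2. Of 24 probe sets of 12 channel partners, 10 rose and 3 fell with SPI, 9 rose under E2 alone and 2 under the combination. Cntnap2, which gathers Kv1 channels beside the node, read -0.85, -0.60 and -0.57 in CAS, 0.40, 0.42 and 0.43 in SPI, 0.09, 0.20 and 0.14 in E2 and -0.67, -0.57 and -0.09 in SPI+E2, and rose by 1.09 ± 0.12 with SPI and 0.81 ± 0.12 with E2. Adam22, found with Kv1 channels at the same site, rose by 0.93 ± 0.11 and 0.98 ± 0.11. The Kv4 partners Dpp10 and Dpp6 rose by 0.87 ± 0.080 and 0.69 ± 0.067 with SPI and 0.64 ± 0.080 and 0.51 ± 0.067 with E2. The 3 probe sets that fell with SPI were 2 of Abcc9 (-0.26 ± 0.055 and -0.24 ± 0.071) and 1 of Lrrc38 (-0.29 ± 0.062), a BK channel partner. None of 3 HCN channel probe sets was called in these comparisons by limma, where 0 had an unadjusted p under 0.05.

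The sodium pump builds the potassium gradient that the channels use. Of its 14 probe sets, 6 rose and 4 fell with SPI, 6 rose with E2, and 1 rose and 1 fell with SPI+E2. The regulators Fxyd7 and Fxyd2 rose by 0.83 ± 0.065 and 0.64 ± 0.069 with SPI and 0.67 ± 0.065 and 0.72 ± 0.069 with E2, and the beta subunit Atp1b1 by 0.51 ± 0.050 and 0.52 ± 0.047 with SPI. With SPI Atp1b4, of muscle, gave -0.63 ± 0.082, Atp1b2 -0.53 ± 0.084 and -0.27 ± 0.046, and Fxyd1 -0.27 ± 0.049, all called. Among cotransporters of potassium and chloride, the neuronal Slc12a5 read -0.20, 0.00 and 0.00 in CAS, 1.01, 1.14 and 0.99 in SPI, -0.33, -0.32 and -0.37 in E2 and 0.05, -0.17 and 0.11 in SPI+E2. Like those of Kcnj16, its SPI arrays lay far above all others, with a rise of 1.11 ± 0.080 (adjusted p = 2.74e-06). Slc12a7 rose by 0.17 with SPI and 0.32 with SPI+E2 at 1 of 2 probe sets.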

How the data were processed

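Total RNA from tibia was read on Affymetrix rat genome arrays, 3 pools a group. The authors scanned the arrays with GCOS, summarized probe sets by RMA and normalized them per chip and per gene in GeneSpring, and the deposited values are log2 expression centred on each probe set's median over the 12 arrays. That the base is 2 follows from the methods; if it were the natural logarithm, 1 unit would be 1.44 log2 units. Centring keeps differences between groups and removes signal levels and any measure of signal over background. Precision is set by how many arrays there were. All columns of values matched a sample.

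Control probe sets (57 of 31099) were left out. Of the remaining 31042, 20826 had 1 symbol in the platform annotation, 436 several and 9780 none, and all 126 Kcn probe sets matched the RefSeq GRCr8 gene table with unchanged symbols. A linear model of the 4 groups with no covariate was fitted with limma 3.58.1 (R 4.3.3, statmod 1.5.0) and the Benjamini-Hochberg adjustment covered the whole set of 31042. On simulated data for SPI against CAS, with 200 of 31042 probe sets changed 1.5-fold, 81.5% were recovered with 9 false calls. The simulated noise was independent between probe sets, and in the data 17.3% of all probe sets were called with SPI. These rates therefore do not describe the calls reported here. Named probe sets were the up to 10 largest rises and falls of each comparison with CAS among called probe sets whose arrays did not overlap CAS, the 6 largest differences of SPI against E2 and of the interaction, and the member with the smallest F test p in each subfamily, and from the other lists up to 4 genes past the test. Other members named as examples were chosen after their values were seen. The members, the lists and the marker lists (neurons, sensory neurons, Schwann cells, central glia, skeletal muscle, smooth muscle, endothelial, erythroid, osteoblasts, chondrocytes, macrophages, channel partners, HCN channels, sodium pump, potassium chloride cotransporters) were chosen with earlier results of these data known. Alternatives were median centring, quantile normalization, robust or unmoderated variances, array weights, fits of 2 groups, the pool number as a block, means per gene, a 1.5-fold rule and each array left out in turn.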

Additional observations from a re-analysis of the deposited data

Results flagged for a closer look

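The interaction of SPI and E2 tests whether the E2 effect differed between the casein and the SPI diet. By limma it was called in 28 potassium channel probe sets (22.2%), beside 9.92% of all probe sets. It was called in 21 of the 32 probe sets that the naming rule picked. As that rule took in the 6 largest called interactions, the number 21 is no separate result. The rule also picked large differences of SPI and of E2 from CAS, which enter the interaction with a minus sign. The split of signs among the 21 is therefore no separate result either. For those 21 the E2 effect on the SPI diet minus that on casein was below 0 in 18 and above 0 in 3. These values, each of a single probe set, are given on the log2 scale. Kv1 channels and their beta subunit gave -1.84 for Kcna2, -1.55 for Kcna1 and -0.90 for Kcnab2. Kv4 channels and their calcium sensors gave -1.48 and -1.47 for the Kcnd3 probe sets, -0.88 for Kcnd1, -1.19 for Kcnip1, -1.11 for Kcnip2 and -1.26 and -1.10 for the Kcnip4 probe sets. Other Kv members gave -1.14 for Kcnc2, -0.76 for Kcnc1, -0.75 for Kcns3, -0.57 for Kcnq5 and -0.27 for Kcnh5, the last with an adjusted p of 0.0489. K2P channels gave -1.04 for Kcnk4 and -0.63 for Kcnk1, and Kcnj16 gave -0.56. The values above 0 were 0.42 for Kcne2, 0.57 for Kcnj11 and 0.62 for Kcnn4, where E2 alone gave -0.77 on casein and -0.14 on the SPI diet. For Kcne2 this was 1 of 3 probe sets. The other Kcnj11 probe sets gave 0.26 and 0.08 and were not called by limma (adjusted p = 0.067 and 0.822). With 3 arrays a group, no test for a single outlying array was made.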

How the results depend on the processing

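For the 55 differences followed in named probe sets, 1034 of 1094 values under other settings kept their side of the threshold, 56 lost a call and 4 gained one. Of the differences called as reported, 0 changed sign. Changes of sign were not counted where a difference was not called, and that of Kcnmb4 with SPI ran from -0.02 to 0.11. Of the 55, 50 were called as reported, and 39 of these lost no call; the other 5 had none to lose. Fitting only the groups compared gave 11 called member probe sets between SPI and E2 (25 in the fit of all groups). The mean over each gene's probe sets gave 11 genes for SPI+E2 against E2 (20 probe sets). A 1.5-fold rule with no test gave 14 (SPI), 8 (E2) and 0 (SPI+E2) against CAS, 2 for SPI against E2, and 8 and 4 for SPI+E2 against SPI and against E2, where limma called 34, 20, 6, 25, 29 and 20. An unadjusted p under 0.05, chosen after seeing the data, gave 31 for E2 and 30 for SPI+E2 against CAS, 24.6% and 23.8% of the members beside 20.3% and 23.5% of all probe sets. Leaving out each array in turn, the counts ran from 29 to 36 for SPI, 16 to 22 for E2, 3 to 7 for SPI+E2 (3 without CAS pool 1), 15 to 28 for SPI against E2 (15 without E2 pool 1 or 3), 20 to 28 for SPI+E2 against SPI, 13 to 22 for SPI+E2 against E2 (13 without SPI+E2 pool 2), 26 to 29 for the interaction and 37 to 43 for the F test. Quantile normalization moved the split of higher and lower calls from 18 and 7 to 12 and 7 for SPI against E2 and from 8 and 12 to 8 and 18 for SPI+E2 against E2. The pool number as a replicate block gave 37, 20 and 6 against CAS, 26, 25 and 18 for the comparisons between treatments, 28 for the interaction and 46 for the F test. Correlations of deviations ran from -0.074 to 0.244 (median 0.044) over 18 pairs of pools of the same number and from -0.23 to 0.202 (median -0.015) over 36 pairs of other numbers; all pairs of pool 3 were above 0, at 0.057 to 0.244. As not every pair passed 0.1, the numbers were not taken to pair the samples. Where a call changed, the cause was not tested. The alternative of leaving out dim probe sets was not run, because centred values hold no signal level.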
